A study of Caenorhabditis elegans with 2 samples.

Results

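The peaks described here are 536 relaxed peaks from an immunoprecipitation of the zinc finger protein ZTF-11 from whole *Caenorhabditis elegans* larvae. Their summits lay inside exons of protein-coding genes, away from gene starts. The deposited relaxed lists are described as peaks and background, so a listed peak need not be a bound site. Strong refers below to rank in a list, and most of the 536 had q values too high to pass commonly used limits. The 536 were chosen by the authors' pooled signal value. From the 30000 relaxed peaks called on both replicates together, the 3000 strongest were taken. Of the 1942 of these on chromosomes II to V, those were kept whose summit lay inside a protein-coding exon. The summit also had to lie outside the window from 1000 bp upstream to 200 bp downstream of every annotated protein-coding 5′ end. The other peaks of the 1942 had their summits in such windows (656 peaks, called promoter peaks below), in introns (390) or between genes (360). Since the pooled signal chose the peaks, their signal is given as a description. The 3 weakest peaks inside the limit lay in *T16G12.1* (signal 11.47), *F22D3.4* (11.47) and *cyp-35B2* (11.46). The first 3 exon peaks beyond rank 3000, in *R13H4.5* (11.46), *T28C6.7* (11.45) and *kel-8* (11.45), had nearly the same signal.

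The assay was chromatin immunoprecipitation with sequencing of the recovered DNA (ChIP-seq), in 1 group of 2 biological replicates. Both came from strain OP236, which has the genotype unc-119(ed3) III with the transgene wgIs236, in which *ztf-11* is fused to eGFP, a green fluorescent protein. The samples were whole L4 larvae, the last larval stage, with males and females pooled, and the fragments were 150 to 350 bp long. There is no second condition, no untagged strain among these samples, and the control alignments were not analysed here. ChIP from whole animals averages over all cell types, and the factor was followed as a transgenic fusion.

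ZTF-11 is the worm member of the Myt1 family of C2HC zinc finger proteins. In vertebrates and in the worm these factors act in neurogenesis, where they repress genes of non-neuronal fates, and vertebrate Myt1 proteins bind elements with the core AAGTT. Transcription factor peaks are usually sought in promoters and enhancers. A summit inside an exon is less easily assigned, since coding sequence differs from the rest of the worm genome in base composition.

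The sequences at the summits are shown for exon peaks that both replicates held, and for the strongest peaks held by 1 replicate alone. Held means among the 3000 strongest, counted from the top of each replicate's own relaxed list. The former were chosen because they ranked high in both libraries, although other exon peaks also met a relaxed peak of each. Shown are all 9 of the former, and the first 3 for each replicate, whose summit was coding and whose window held no untranslated base. Each is the 101 bases centred on the summit in ce11, 5′ to 3′ on the strand of the gene, from the RefSeq genome. Capitals mark AAGTT or its reverse complement AACTT, and a window may run from the exon into an intron.
*dos-3*, strongest peak, both replicates: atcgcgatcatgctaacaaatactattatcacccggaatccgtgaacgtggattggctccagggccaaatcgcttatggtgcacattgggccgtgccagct
*dos-3*, second peak, both replicates: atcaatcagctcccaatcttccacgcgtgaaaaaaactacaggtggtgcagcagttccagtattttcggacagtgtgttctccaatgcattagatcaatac
*ZK218.1*, both replicates: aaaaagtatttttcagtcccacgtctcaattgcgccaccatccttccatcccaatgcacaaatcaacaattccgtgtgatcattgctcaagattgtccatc
*hda-2*, both replicates: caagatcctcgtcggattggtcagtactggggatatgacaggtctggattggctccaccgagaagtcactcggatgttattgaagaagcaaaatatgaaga
*cpr-9*, both replicates: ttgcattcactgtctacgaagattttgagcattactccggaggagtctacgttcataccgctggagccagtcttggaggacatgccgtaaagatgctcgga
*unc-80*, both replicates: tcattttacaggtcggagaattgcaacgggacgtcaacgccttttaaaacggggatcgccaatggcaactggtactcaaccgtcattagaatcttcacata
*elo-5*, both replicates: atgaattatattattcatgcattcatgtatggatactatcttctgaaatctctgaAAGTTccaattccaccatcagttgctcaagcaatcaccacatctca
*F49E11.2*, both replicates: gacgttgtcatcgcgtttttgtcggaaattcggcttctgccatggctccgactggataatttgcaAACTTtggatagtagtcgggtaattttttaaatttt
*faah-2*, both replicates: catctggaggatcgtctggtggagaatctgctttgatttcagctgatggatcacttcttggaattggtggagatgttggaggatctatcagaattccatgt
*R05G6.10*, replicate 1 alone: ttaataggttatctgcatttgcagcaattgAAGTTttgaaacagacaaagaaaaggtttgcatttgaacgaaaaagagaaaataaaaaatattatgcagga
*pot-3*, replicate 1 alone: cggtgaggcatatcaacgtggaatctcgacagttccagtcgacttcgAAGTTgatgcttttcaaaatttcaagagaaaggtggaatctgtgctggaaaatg
*tba-7*, replicate 1 alone: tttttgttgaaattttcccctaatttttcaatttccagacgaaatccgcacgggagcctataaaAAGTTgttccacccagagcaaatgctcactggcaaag
*F58G1.7*, replicate 2 alone: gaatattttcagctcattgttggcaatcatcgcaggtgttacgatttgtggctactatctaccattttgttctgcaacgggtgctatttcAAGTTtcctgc
*rsp-8*, replicate 2 alone: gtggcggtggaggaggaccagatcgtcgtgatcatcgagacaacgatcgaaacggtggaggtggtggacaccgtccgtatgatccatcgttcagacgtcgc
*rfip-1*, replicate 2 alone: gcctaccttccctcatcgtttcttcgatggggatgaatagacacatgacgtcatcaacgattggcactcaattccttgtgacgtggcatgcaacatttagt
The windows ranged from 28.7% G and C (*R05G6.10*) to 58.4% (*rsp-8*). Of the 9 windows held by both replicates, 2 had AAGTT, those of *elo-5* and *F49E11.2*. It also stood in all 3 windows of replicate 1 alone and in 1 of replicate 2 alone.

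Across the 536 peaks the pooled signal had a median of 12.9 and ran from 11.46 to 32.9, so only a few stood far above the rest. The exon peaks were 27.6% of the 1942 strong peaks (exact 95% interval for counting error 25.6 to 29.6%), while exon bases outside the promoter windows, called eligible exon positions below, made up 21.8% of the bases of these chromosomes. Among the 3000 strongest of each replicate's own list the exon share was 19.9% in replicate 1, below 21.8%, and 42.2% in replicate 2, above it. In the pooled list the exon share was lower at the top. Of the 100 strongest pooled peaks, 55 lay on these chromosomes and 8 of those (14.5%) were exon peaks. The share was 22.5% from there to rank 300, 29.6% to rank 1000 and 27.98% to rank 3000. Promoter peaks took the opposite course, from 60% of the 100 strongest through 43.4% and 35.7% to 31.1%. Beyond rank 3000 the exon share was 27.4% up to rank 10000 and 24.2% up to rank 30000.

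**Figure D1:**
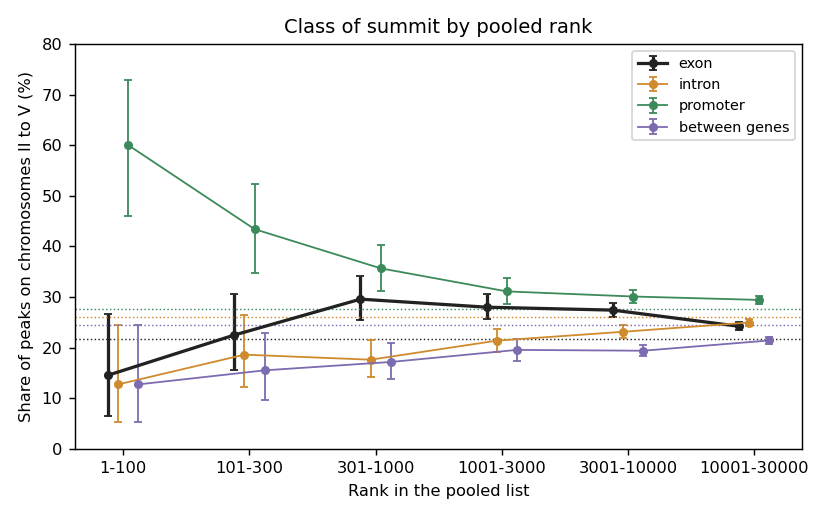
Share of pooled peaks on chromosomes II to V with the summit in an exon, an intron, a promoter window or between genes (y, percent), by rank in the pooled list (x). Bars are exact 95% intervals for counting error and dotted lines the share of bases in each class. The exon share was 14.5% among the 100 strongest and 27.98% between ranks 1000 and 3000, while the promoter share went from 60% to 31.1%.

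The strongest exon peak lay in *dos-3*, which encodes a protein of the DOS family of Notch co-ligands. It spanned III:835812-836091 in the coding part of the last of 11 exons, at 94.7% of the length of the gene. Its signal was 32.9 in the pooled list (rank 24), 21.997 in replicate 1 (rank 58) and 13.6 in replicate 2 (rank 86). These scales are not stated and differ between lists, so only the ranks can be set side by side. A second pooled peak (rank 1604, signal 12.8) had its summit 201 bp away in the same exon, and it overlapped the same peak of each replicate, so the pair is 1 site rather than 2.

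**Figure D2:**
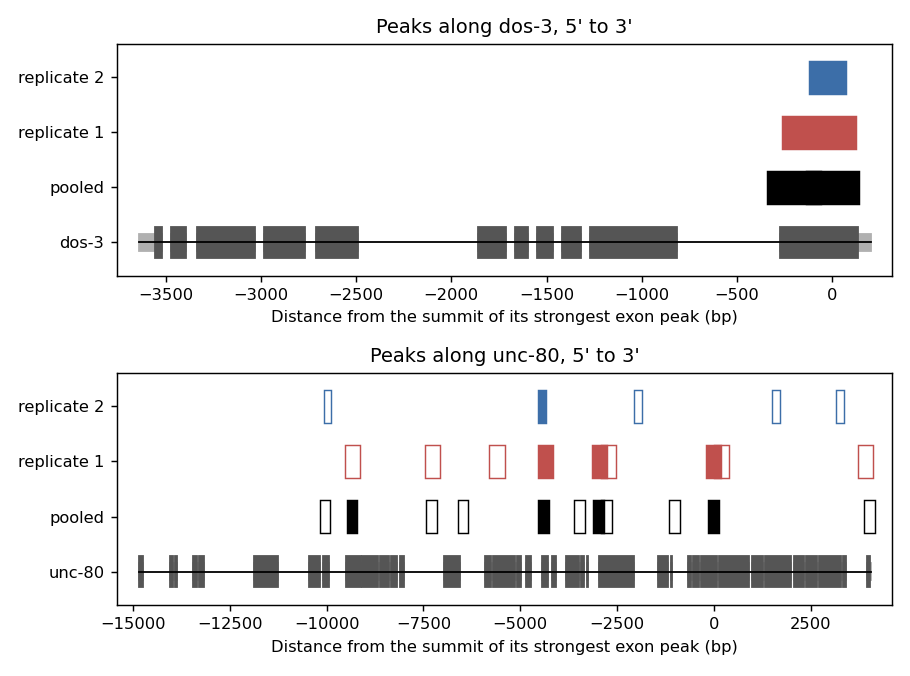
Relaxed peaks along *dos-3* and *unc-80*, drawn 5′ to 3′ by distance in bp from the summit of the strongest exon peak of each gene (x). Filled boxes are peaks among the 3000 strongest of their list and open boxes weaker peaks. In the gene models, dark boxes are coding sequence and pale boxes untranslated exon parts. In *dos-3* the 2 pooled peaks overlap and share 1 peak of each replicate. In *unc-80* 4 strong pooled peaks are spread over the gene and 1 of them has a strong peak in both replicates.

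The authors' thresholded list, made by comparing replicates for irreproducible discovery rate (IDR), held 47 peaks of the 3000 strongest (1.57%). Among the exon peaks it held 2 of 536 (0.373%): the strongest *dos-3* peak and the peak in *ZK218.1*. The latter spanned V:17092928-17093207 in the last of 3 exons, with a pooled signal of 28.6 (rank 42). It ranked 1689 in replicate 1 and 329 in replicate 2.

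Replicate 1 held 177 of the 536 exon peaks (33.02%) among its own 3000 strongest, against 40.1% of all 3000 strong pooled peaks. Replicate 2 held 101 (18.8%, against 18%). Both held 13 (2.43%, against 3.37%). No relaxed peak of either replicate, at any rank, overlapped 19 (3.54%, against 2.4%). The exon peaks thus divided into 164 held by replicate 1 alone (30.6%, against 36.7% of all 3000), 88 by replicate 2 alone (16.4%, against 14.6%), 13 by both and 271 by neither (50.6%, against 45.3%). The replicates' reads also made the pooled list, so an overlap is not independent evidence for a peak. Of the 536, 120 were strong in replicate 1 and met no relaxed peak of replicate 2 (22.4%, against 29.6% of all 3000), and 53 were strong in replicate 2 and met none of replicate 1 (9.89%, against 7.8%). Where both replicates had a relaxed peak (180 exon peaks), their signals had a Spearman rho of -0.161, given as a description since the peaks were chosen on the pooled signal that both feed.

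**Figure D3:**
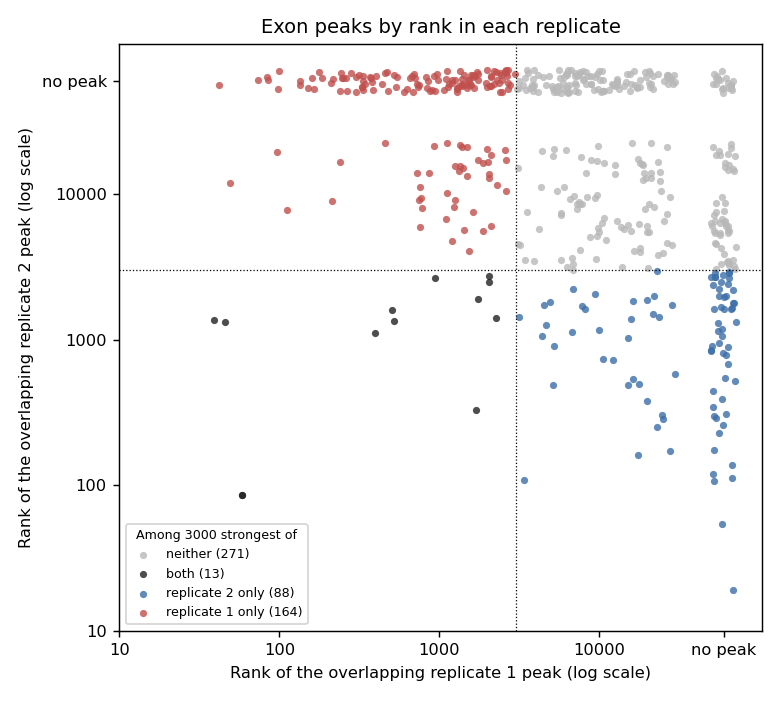
Each of the 536 exon peaks by the rank of the overlapping peak in replicate 1 (x, log scale) and in replicate 2 (y, log scale), with a strip for no overlapping peak, in which points are spread at random. Dotted lines mark rank 3000. The 13 peaks within rank 3000 in both are black, and the 2 *dos-3* peaks coincide. The 164 red peaks and 88 blue peaks are strong in replicate 1 or replicate 2 alone.

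Exon peaks were held by the replicates in a different proportion than the other classes. By Fisher's exact test, in replicate 1 the share of 33.02% was below that of intron peaks (43.8%, difference -10.8 points, adjusted p = 0.00384), promoter peaks (41.5%, difference -8.44, adjusted p = 0.00483) and peaks between genes (43.3%, difference -10.3, adjusted p = 0.00384). By the same exact test, in replicate 2 the share of 18.8% was above that of intron peaks (11.3%, difference 7.56, adjusted p = 0.00384) and peaks between genes (12.8%, difference 6.07, adjusted p = 0.0202). Against promoter peaks (21.8%) the difference of -2.96 points did not pass the exact test (adjusted p = 0.22). The tests were two-sided, with Benjamini-Hochberg adjustment over the 6 comparisons. They count peaks, some of which share a gene, and compare these 2 libraries rather than conditions. The pooled signal that chose the peaks came from the reads of both replicates, so the tests are not independent of the selection. The replicates' own lists, given below, also differed in class, and the part of this in the differences was not tested. Among the 1000 highest pooled peaks, of which 168 were exon peaks, the replicate 1 differences were of similar size (-8.071, -9.49 and -10.41 in the same order) and did not pass the test. The replicate 2 differences depended on the setting. With every relaxed peak of the replicate they were 17.41 points from intron peaks and 17.24 from peaks between genes, and with its 1000 strongest peaks alone 2.381 and 1.078, neither past the test. From promoter peaks the difference passed the test at -6.307 with the 1000 strongest peaks of the replicate, at -14.65 among the 1000 highest pooled peaks and at -6.538 with a promoter window of 500 and 100 bp. It was above 0, at 2.036 with every relaxed peak and 1.997 with a window of 2000 and 500 bp, in 2 settings where it did not pass.

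The replicates' own lists differed in the same respect. Under the same rule, the 3000 strongest peaks of replicate 1 gave 392 exon peaks, 19.9% of those on chromosomes II to V, and those of replicate 2 gave 804 (42.2%). Of the 392, 150 (38.3%) overlapped one of the 536, and of the 804, 95 (11.8%) did. Median G and C content within 100 bp of the summit was 36.3% for the replicate 1 exon peaks and 46.3% for those of replicate 2. The other classes differed too, with medians of 32.8 to 34.3% in replicate 1 and 45.8 to 46.3% in replicate 2.

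The 536 showed the same split, which is not a separate observation, since they were grouped by overlap with those lists. The median G and C content of all 536 was 40.3%, against 38.8% over eligible exon positions. Peaks held by replicate 1 alone had a median of 37.8% and those held by replicate 2 alone 44.5%. Of the former, 64.02% were under 40% G and C, and of the latter 21.6%. The 13 peaks held by both had a median of 41.3%, and the 271 held by neither 40.3%. In the other classes the medians for replicate 1 alone and replicate 2 alone were 34.3 and 47.8% in introns, 35.8 and 46.8% in promoter windows, and 33.8 and 46.3% between genes. The part of base composition in which replicate holds a peak was not tested.

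**Figure D4:**
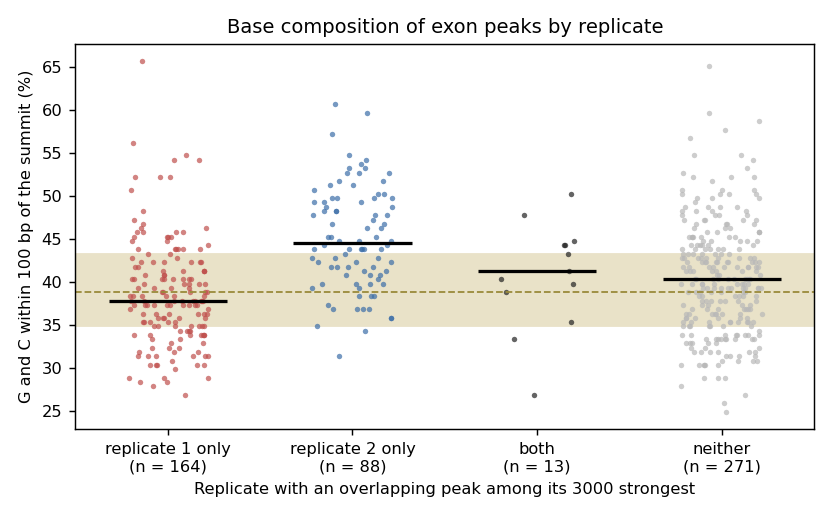
G and C content within 100 bp of the summit (y, percent) of each exon peak, by the replicate that held it among its 3000 strongest (x). Black bars are medians, and the dashed line and pale band are the median and quartiles of eligible exon positions. The median was 37.8% for replicate 1 alone and 44.5% for replicate 2 alone.

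Besides *dos-3* and *ZK218.1*, the peaks held by both replicates lay in 10 genes. The one in *hda-2*, a class I histone deacetylase, had a pooled signal of 22.3 (rank 74) and ranked 395 in replicate 1 and 1119 in replicate 2. The one in *nhr-102*, a nuclear hormone receptor, lay in the 3′ untranslated region (UTR) with a signal of 21.6 and ranked 46 and 1326. It lay within 300 bp of a small nucleolar RNA gene. The *cpr-9* peak, in a cathepsin B-like protease gene, ranked 2268 and 1411, and the *best-18* peak, in the 3′ UTR of a bestrophin channel gene, 521 and 1345. These 4 had pooled signals between 17.5 and 22.3.

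The remaining 6 were weaker in the pooled list. The *unc-80* peak (signal 16.6) ranked 2050 in replicate 1 and 2502 in replicate 2; UNC-80 is a subunit of the NALCN sodium leak channel complex. The *elo-5* peak (15.3), in a fatty acid elongase gene, ranked 1735 and 1913, and the *egas-4* peak (15.1), in a degenerin-family channel gene, 506 and 1614. The *F49E11.2* peak (13.4) ranked 943 and 2678, and the *faah-2* peak (12.4), in a fatty acid amide hydrolase gene, 2052 and 2730. The *Y39A1A.22* peak (12.8) ranked 39 in replicate 1 and 1373 in replicate 2, although only 1563 in the pooled list. Counting the *dos-3* pair once, 8 of 12 sites lay in the last exon of their gene, against 26.3% of the 536 peaks and 23.3% of eligible exon positions.

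Several of the strongest exon peaks were held by replicate 1 alone. They included *C34C12.2* (pooled signal 24.5, replicate 1 rank 42), *wht-1*, a White-family ABC transporter (23.6, rank 85), and *hlh-11*, a basic helix-loop-helix transcription factor (22.96, rank 456), none of which met a relaxed peak of replicate 2. *R05G6.10* (20.3), *W08E12.7* (19.4) and *pkc-1*, a protein kinase C (18.3), also met none. *pot-3*, of the POT1 telomere-binding family (20.01), *tba-7*, an alpha tubulin (18.7), and *gcna-1*, germ cell nuclear antigen (18.7), met replicate 2 peaks of ranks 11985, 8017 and 6056.

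Others were held by replicate 2 alone. The *rsp-8* peak, in an SR splicing factor gene, had a pooled signal of 19.5 and was ranked 19 in replicate 2 with no peak in replicate 1. *ZK112.4* (20.7, rank 299), *fbxl-1*, an F-box protein with leucine-rich repeats (18.96, rank 308), and *cbp-1*, the CBP/p300 acetyltransferase (19.1, rank 2645), likewise met none in replicate 1. *F58G1.7* (20.7, rank 1031), *rfip-1* (19.3, rank 162) and the collagen gene *col-96* (18.5, rank 1816) met weak ones, of ranks 15091, 17544 and 4937. *clec-25*, a C-type lectin (19.8), *pyc-1*, pyruvate carboxylase (17.8), and *C54D10.5* (17.7) were among the 25 strongest exon peaks and were held by neither.

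The 536 peaks lay in 506 genes. In 26 genes there were 2 or more, 56 peaks in all: 23 genes had 2, *let-805* and *mnk-1* had 3, and *unc-80* had 4. The 4 *unc-80* peaks spread over 9340 bp and were held by both replicates once, by replicate 1 alone in 2 cases and by neither once. *unc-77*, which encodes a pore subunit of the same channel complex, had 2 peaks 8327 bp apart, one held by replicate 1 alone and one by neither. In *let-805*, which encodes the epidermal attachment protein myotactin, 2 peaks were held by replicate 2 alone and the third by neither. Several peaks in a gene did not mean that the same library held them. In 5 genes (*DH11.5*, *acp-6*, *cbp-1*, *mnk-1* and the polyubiquitin gene *ubq-1*) one peak was held by replicate 1 alone and another by replicate 2 alone, 647 bp apart in *acp-6* and 6771 bp apart in *cbp-1*. The other genes with 2 peaks included *itr-1*, the IP3 receptor (both replicate 1 alone), *eat-6*, a sodium pump subunit (both replicate 2 alone), and *egl-4*, a cGMP-dependent kinase, *ptc-3*, a Patched homologue, and *unc-70*, beta spectrin (all held by neither).

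Within their genes, 456 summits (85.1%) lay in coding sequence, against 88.1% of eligible exon positions, and 72 (13.4%, against 10.3%) in 3′ UTRs. Last exons held 141 (26.3%, against 23.3%), internal exons 378 and first exons 15. The last 20% of the gene held 175 summits (32.6%, against 28.1%), and 140 (26.1%, against 19.1%) lay over 5000 bp from the 5′ end of the gene. The host exons had a median length of 369 bp, against 340 bp. Peaks held by replicate 1 alone were in last exons in 35.4% of cases and in 3′ UTRs in 17.7%, and those held by replicate 2 alone in 20.5% and 5.68%. Eligible positions are every 100th eligible exon base, so long exons weigh by their length, and these shares are descriptions.

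**Figure D5:**
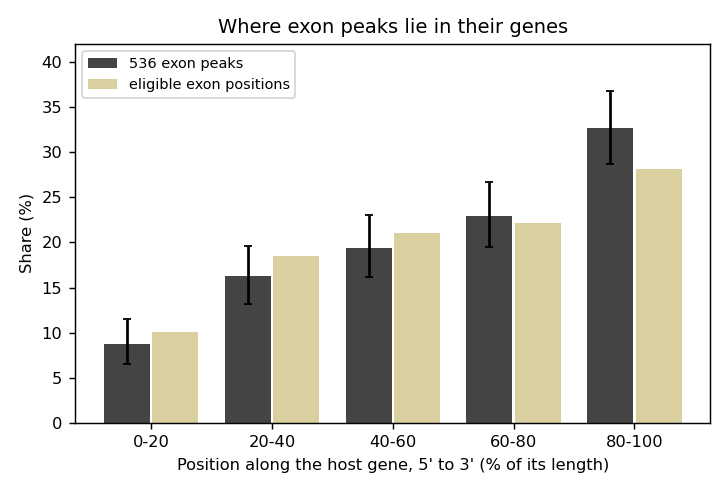
Share of the 536 exon peaks (dark, with exact 95% intervals for counting error) and of eligible exon positions (pale) in each 20% of the length of the host gene from 5′ to 3′ (x), in percent (y). Both shares rise along the gene, and the last 20% held 32.6% of the peaks against 28.1% of the positions.

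The Myt1 core was not more common at these summits than elsewhere in exons. AAGTT, on either strand, stood within 100 bp of 272 of the 536 summits (50.7%), against 55.8% of eligible exon positions. The longer AAAGTTT, which contains AAGTT, stood near 52 (9.70%, against 10.4%). For peaks held by replicate 1 alone the AAGTT share was 54.3%, and for those held by replicate 2 alone, which were richer in G and C, 39.8%. Among the 13 held by both it was 4. Other words searched on both strands were near their shares over exons: GAGAGA 11.4% against 10.5%, TTTTCAG, which resembles the end of a worm intron, 19.6% against 19.9%, CACGTG 4.85% against 4.50%, and GATAA 35.3% against 38.7%. A match or its lack is a property of the letters in the window and says nothing of binding.

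None of the 536 summit windows had a near-identical copy elsewhere in the genome (at least 95% identity over at least 100 bases), which by a limit of 3 counts allows a share of up to 0.56% (0.686% by the exact 95% interval), while 5.38% of a sample of 14694 eligible exon positions had one. The other strong peaks also had few: 3 of 390 in introns, 4 of 656 in promoter windows and 3 of 360 between genes. How the authors' alignment treated reads that match several places is not given in the sources used here. A small RNA gene stood within 300 bp of 6 summits (1.12%, against 0.606%), in *nhr-102*, *F58G1.7*, *dhc-4*, *twk-48*, *prp-8* and *nol-56*.

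The host genes were grouped by 25 lists of gene symbols, and the share of exon peaks in each was set beside the share of eligible exon positions in its genes. Most peaks fell in no list. Genes that act throughout the nervous system had 10 peaks (1.87%, against 0.742%). The strongest were in *unc-104*, the kinesin that carries synaptic vesicles (signal 15.4), and *unc-64*, syntaxin (14.6), both held by replicate 1 alone. The other 8, among them *unc-70* and *rgef-1*, were held by neither. Motors and cytoskeletal genes had 9 (1.68%, against 0.881%), led by *tba-7* and by *fln-1*, filamin (14.5), and 2 of the 9, in *unc-70*, also count in the nervous system list. Genes of RNA processing had 12 (2.24%, against 1.54%). Besides *rsp-8* they included *let-711* (15.9) and *ntl-2* (15.3), subunits of the CCR4-NOT complex, and *hrpu-2* (15.2), all 3 held by replicate 1 alone.

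Chromatin regulators had 8 peaks (1.49%, against 1.33%). These included *hda-2*, 2 peaks in *cbp-1* (19.1 and 15.96) and *set-25*, a histone H3 lysine 9 methyltransferase (17.3, replicate 1 alone). The Notch list had the 2 *dos-3* peaks (0.373%, against 0.226%). The Wnt list had 3 (0.56%, against 0.177%): *wrm-1*, a beta-catenin (16.2), *cwn-1*, a Wnt ligand (14.5), and *dsh-2*, a Dishevelled (11.8), of which *cwn-1* was held by replicate 1 alone and the others by neither. Nuclear hormone receptors had 7 (1.31%, against 1.58%), led by *nhr-102*, and homeobox genes 2 (0.373%, against 0.414%), *ceh-91* and *unc-62*, both held by replicate 2 alone.

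Of the remaining lists, chemoreceptor genes and F-box, BTB and MATH genes lay below their share, and the others had intervals that held it. Chemoreceptor genes had 21 peaks (3.92%, against 6.42%), 9 held by replicate 1 alone and 2 by replicate 2 alone, with *srlf-16* (15.9) the strongest. F-box, BTB and MATH genes had 3 (0.56%, against 2.29%). The symbol pattern of this list missed *fbxl-1*, so the peak in that F-box gene is not in the count. C-type lectins also had 3 (0.56%, against 1.18%), and germline RNA and small RNA pathway genes had 2 (0.373%, against 0.836%). Ion channels and transmitter receptors had 9 (1.68%, against 1.88%), led by *best-18*. The symbol pattern of this list missed channel genes such as *egas-4* and *unc-77*, so both shares are incomplete. Cuticle collagens and cuticulins had 7 (1.31%, against 0.931%), of which *col-96*, *col-113* and *col-122* were held by replicate 2 alone and *col-95*, with 65.7% G and C, by replicate 1 alone. The basement membrane and attachment list had 5 (0.933%, against 0.678%), in *let-805*, the laminin gene *epi-1* and *mua-3*, 3 of them held by replicate 2 alone. The cell cycle list had 9 (1.68%, against 1.60%), but 3 of these lay in *emb-8*, a cytochrome P450 reductase, and *emb-4*, an RNA helicase, which its symbol pattern took in and which are not cell cycle genes. Ribosomal protein genes and histone genes had none, each allowing up to 0.56% by the same 3 counts and 0.686% by the exact interval, although their eligible exon positions were few (0.0578% and 0.0245%).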

How the data were processed

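The data were lists of ZTF-11 peaks from 2 biological replicates. Per the descriptions deposited with the lists, the authors called relaxed peaks on each replicate and on both pooled, against control alignments, and derived the thresholded list from them. For the caller and the aligner, a name is not given in the sources used here. Each deposited peak has a signal value of unstated scale, used only to rank peaks within a list, and the −log10 of a q value, not used for selection. The highest −log10 q was 2.12 for the pooled peaks but 0.629 for replicate 1, whereas the lowest of replicate 2 was 2.58. The origin of this difference is not known, so results of either replicate alone carry this doubt. Among the exon peaks the pooled −log10 q was 2.12 at rank 24, 1.17 at rank 142 and 0.482 at rank 1000. Most exon peaks thus had q values too high to pass commonly used limits. Strong therefore refers to rank in a list throughout, not to a q value. Peaks were 280 bp wide in the pooled list and mostly 390 bp in replicate 1 and 196 bp in replicate 2, so chance overlap differs between replicates. The relaxed lists held 30000, 30000 and 22869 peaks. Read counts are not part of them: depth is therefore unknown, and intervals cover the counting of peaks only.

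Coordinates are 1-based in ce11, and gene models are those of Ensembl release 115 for WBcel235. Lists in ce10 were not used. Overlap meant at least 1 shared base. Near-identical copies were sought with BLAST 2.17.0, and tests used scipy 1.17.1. Overlap, classification and the test were tested on simulated data. Alternatives were the depth of the lists, the promoter window, the annotation used, the overlap rule, each replicate's own list and the motif window. Genes were named by a rule: hosts of the 25 strongest exon peaks, thresholded peaks, peaks held by both replicates, genes with 2 or more, up to 4 genes a list, and the 3 on either side of the limit. The peaks, lists and tests were chosen with earlier results of these data known.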

Additional observations from a re-analysis of the deposited data

How the results depend on the processing

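With 1 group and 2 replicates, p-values describe these 2 libraries, and the unknown depth limits what a missing peak means. Taking the 1000 or the 5000 highest pooled peaks gave 168 or 887 exon peaks. Leaving out a replicate gave 392 to 804. The share held by replicate 1 was 24.63% with summits within 100 bp, 15.67% with its 1000 strongest peaks, 77.24% with every relaxed peak and 48.81% among the 1000 highest pooled peaks. For replicate 2 it was 8.022% with its 1000 strongest, 52.8% with every relaxed peak and 23.81% among the 1000 highest pooled peaks.

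With every relaxed peak of the replicates, the replicate 2 differences were 17.41 points from intron peaks and 17.24 from peaks between genes. With the 1000 strongest peaks of each replicate, the replicate 1 differences from promoter peaks (-7.652) and from peaks between genes (-6.828) still passed. The exon minus intron difference in that setting, by Fisher's exact test, was -4.585 points in replicate 1 (with adjustment p = 0.121) and 2.381 in replicate 2 (p = 0.231). For the latter the differences by the exact test were 1.078 from peaks between genes (adjusted p = 0.608) and -6.307 from promoter peaks (adjusted p = 0.00305). Among the 1000 highest pooled peaks, which leave fewer peaks to test, the replicate 1 differences were -8.071 from intron peaks, -9.49 from promoter peaks and -10.41 from peaks between genes, none past the test. In replicate 2 they were 0.8737 from intron peaks, -14.65 from promoter peaks (exact test, adjusted p = 0.0116) and, with the sign turned, -1.433 from peaks between genes (adjusted p = 0.886). The replicate 2 difference from peaks between genes was 4.561 (exact test, adjusted p = 0.0727) both with summits within 100 bp and with 50% overlap. With a promoter window of 500 and 100 bp, the replicate 2 difference from promoter peaks was -6.538 (exact test, adjusted p = 0.0156). Beyond the smaller number of peaks, the cause of these shifts was not tested.

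Within 50 bp of the summit AAAGTTT stood at 4.104% and AAGTT at 30.22% of the exon peaks, and in the whole peak at 13.99% and 63.62%, as a shorter or longer window must give. No paired analysis was possible because there is 1 group.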
